A study of Mus musculus with 6 samples.

Results

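The genes described here are 10 members of the NF-κB system: the subunit genes Nfkb1, Nfkb2, Rel and Relb, the IκB family genes Nfkbia, Nfkbid, Nfkbiz and Bcl3, and the feedback regulators Tnfaip3 and Traf1. They were taken by name as 10 of the 55538 features of a single-cell UMI count table (24015 of the features had at least 1 UMI), and all 10 passed the filter on low values in every comparison below. Resident peritoneal cells of C57BL/6 mice (substrain C57BL/6J) aged 8 to 12 weeks, either MerTK +/+ or MerTK -/- (the MerKD line), were plated, and cells that adhered were kept. In each genotype they received a media change only (WT_Ctrl and MerKD_Ctrl) or were co-cultured for 2 h (WT_2hr, MerKD_2hr) or 6 h (WT_6hr, MerKD_6hr) with ACs, which are apoptotic human Jurkat T cells killed by UV, at 5 ACs per peritoneal cell. Each of these 6 groups was 1 droplet library (10x Genomics 5′ chemistry) of cells pooled from 3 mice. Each cell barcode ends in a library number, 1 to 6. Nothing in the labels ties these numbers to the 6 groups, so genotypes and times were not compared, the level of Mertk could check no label, and the libraries are not replicates of a condition.

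NF-κB is a family of dimeric transcription factors that wait in the cytoplasm bound to IκB proteins. Signals from Toll-like, TNF, IL-1 and antigen receptors lead to IκB degradation, and the freed dimers enter the nucleus and switch on chemokines, cytokines and survival genes. Among the genes they switch on are several of their own inhibitors, such as Nfkbia and Tnfaip3, so the system limits itself. Macrophages use it for the inflammatory response, and B cells use it, with Rel prominent, for activation and survival.

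Cells were classed by marker UMIs. Macrophages had at least 2 UMIs of Csf1r, Adgre1 and Fcer1g together with few lymphocyte UMIs, B cells had at least 4 of Cd79a and Cd79b, and T/NK cells had at least 2 of Cd3d, Cd3e and Nkg7. Of 7665 cells kept, 2773 were macrophages, 3101 were B cells and 667 were T/NK cells, while 1277 fell in no class. The macrophages were then split by Tnf (260 cells with at least 2 UMIs against 2199 with 0) and the B cells by Egr3 and Egr4 together (319 cells with at least 2 UMIs against 2537 with 0). Tnf encodes an inflammatory cytokine, and Egr3 and Egr4 are immediate early genes that rise on antigen receptor signalling. The summed level of 12 macrophage markers was 23784 UMIs per 1000000 UMIs (CPM) in macrophages and 673 CPM in B cells, and that of 8 B cell markers was 3663 CPM in B cells and 16.5 CPM in macrophages. Both lists include the genes of the class rules, so part of these differences was fixed by the rules. Each list gene outside the rules was also higher in its own class. Lyz2 was at 15081 CPM in macrophages and 235 CPM in B cells, and Ebf1 at 4.64 and 535 CPM. The lymphocyte classes were mixed. Of the T/NK barcodes 153 also met the B cell rule and are counted in both classes, the T/NK class had B cell markers at a summed 1132 CPM, and 122 B cell barcodes carried Csf1r or Adgre1 UMIs. T/NK results are therefore given with and without the barcodes shared with B cells. With every B cell that had a Cd3d, Cd3e, Nkg7, Csf1r or Adgre1 UMI left out, 7 members were called in the B cell split below, as with them. Libraries held 4234786 to 10287079 UMIs, and 28 barcode sequences occurred in more than 1 library.

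The promoters of the members are shown first because NF-κB factors bind a short κB sequence, and the members called higher below can be set beside it. Each run is the 250 bases before an annotated RefSeq start on GRCm38.p6, written 5′ to 3′ on the strand of the gene, with matches to the 10-base κB consensus on either strand in capitals.
Nfkbia promoter, chr12:55492648-55492897, minus strand: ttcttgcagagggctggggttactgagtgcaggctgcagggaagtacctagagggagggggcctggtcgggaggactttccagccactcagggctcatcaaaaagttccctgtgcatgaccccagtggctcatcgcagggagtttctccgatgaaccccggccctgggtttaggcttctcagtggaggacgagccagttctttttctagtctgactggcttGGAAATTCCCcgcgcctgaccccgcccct
Tnfaip3 promoter, chr10:19015411-19015660, minus strand: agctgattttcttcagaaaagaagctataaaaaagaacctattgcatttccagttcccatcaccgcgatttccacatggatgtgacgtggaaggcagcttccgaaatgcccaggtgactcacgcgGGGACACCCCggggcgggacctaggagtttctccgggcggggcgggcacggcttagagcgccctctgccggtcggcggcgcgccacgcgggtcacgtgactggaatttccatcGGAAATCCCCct
Nfkbid promoter, chr7:30422156-30422405, plus strand: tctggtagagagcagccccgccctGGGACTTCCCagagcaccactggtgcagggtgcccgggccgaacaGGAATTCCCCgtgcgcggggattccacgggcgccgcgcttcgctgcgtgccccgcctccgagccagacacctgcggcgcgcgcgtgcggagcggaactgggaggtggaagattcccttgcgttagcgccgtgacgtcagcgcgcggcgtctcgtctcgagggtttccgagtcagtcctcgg
Rel promoter, chr11:23770970-23771219, minus strand: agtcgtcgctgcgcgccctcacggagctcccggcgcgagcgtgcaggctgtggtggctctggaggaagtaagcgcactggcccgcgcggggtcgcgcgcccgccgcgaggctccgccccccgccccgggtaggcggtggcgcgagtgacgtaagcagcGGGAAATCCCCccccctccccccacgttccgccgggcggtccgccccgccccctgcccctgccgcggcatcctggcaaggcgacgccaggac
Nfkb2 promoter, chr19:46304487-46304736, plus strand: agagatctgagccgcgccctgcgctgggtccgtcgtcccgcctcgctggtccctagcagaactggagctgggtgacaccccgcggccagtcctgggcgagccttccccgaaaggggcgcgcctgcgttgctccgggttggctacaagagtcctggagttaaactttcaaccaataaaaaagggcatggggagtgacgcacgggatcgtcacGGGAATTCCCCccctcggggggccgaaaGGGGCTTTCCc
Bcl3 promoter, chr7:19822756-19823005, minus strand: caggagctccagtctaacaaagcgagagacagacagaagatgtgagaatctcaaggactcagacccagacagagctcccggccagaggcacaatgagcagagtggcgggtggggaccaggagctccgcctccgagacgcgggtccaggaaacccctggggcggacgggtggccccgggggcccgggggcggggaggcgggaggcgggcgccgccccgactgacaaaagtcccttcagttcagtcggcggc
The Nfkbia window held 1 match, which began 29 bases before the start. The Tnfaip3 window held 2, which began 125 and 12 bases before the start, and the window of another Tnfaip3 start held none. The Nfkbid window belongs to 1 of 3 annotated starts, and the other Nfkbid windows held no match. In the Rel window the capitals are 2 matches that overlap by all but 1 base, and in the Nfkb2 window the first capitals are likewise an overlapping pair. All 3 annotated Nfkb2 windows held a match. Bcl3 is shown as a member with no match in its window. The promoter set held no entry for Nfkb1, Relb and Nfkbiz, so these 3 members were not searched. Of the 12 promoters of the other 7 members, 7 held a match (58.3%), and Nfkb2 alone gave 3 of the 7. Among 32851 mouse promoters of the same length 7.25% held a match. Counted by gene, 5 of 7 members had a match in at least 1 window (71.4%), against 8.23% of 27025 genes. Traf1 (chr2:34961773-34962022, minus strand) held none. A match describes letters only, and no binding was measured here.

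In macrophages, 3 of the IκB family genes and Tnfaip3 differed most between cells with and without Tnf UMIs. Nfkbiz was 5.83-fold higher in the cells with at least 2 Tnf UMIs, Tnfaip3 2.67-fold, Nfkbid 2.35-fold and Nfkbia 2.14-fold. The subunit genes differed by less, from 1.19-fold for Nfkb1 to 1.56-fold for Nfkb2, as did Traf1 and the IκB family gene Bcl3. A gene was called higher or lower at a log2 ratio of at least 1 or at most -1, where the ratio was stratified by library and the 95% interval covers counting error only. By that rule 4 of the 10 members were called higher and 0 lower, against 1.35% and 3.44% of the 8543 genes tested. The library values of 5 members (these 4 and Rel) did not overlap between the sides, with the Tnf side higher, which held for 0.433% of tested genes. The members' median log2 ratio was 0.59, and that of all tested genes was -0.17. The members were chosen with earlier results of these data known, and Tnf is a cytokine gene, a kind that NF-κB switches on. These shares are therefore a description and no independent support.

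Nfkbiz encodes an inducible nuclear IκB protein that acts as a cofactor for a subset of NF-κB targets, among them Il6. Over the 6 libraries its level ran from 27.1 to 64.2 CPM (median 55.3) in macrophages without Tnf and from 191 to 398 CPM (median 338) in those with at least 2 Tnf UMIs. The ranges did not overlap, and the lowest high-side libraries were those numbered 3 and 6. The log2 ratio was 2.54 (95% interval 2.37 to 2.71), with the difference above 0 in 6 of 6 libraries, and it is 1.94 when the high side starts at 1 Tnf UMI.

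Tnfaip3 encodes a ubiquitin-editing enzyme that shuts down signalling to the IκB kinase. It ran from 131 to 256 CPM (median 188) without Tnf and from 335 to 596 CPM (median 475) with Tnf, so these ranges did not overlap either. Its log2 ratio was 1.42 (1.30 to 1.53).

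Nfkbid, another nuclear IκB protein, ran from 86.9 to 137 CPM without Tnf and from 232 to 329 CPM with Tnf, with a log2 ratio of 1.23 (1.08 to 1.39). Nfkbia encodes IκBα, the main cytoplasmic inhibitor, and ran from 277 to 449 CPM without Tnf and from 474 to 901 CPM with Tnf. Its ranges nearly touched, because library 3 rose from 342 to only 474 CPM, and its log2 ratio was 1.10 (1.01 to 1.19). Both genes were higher with Tnf in 6 of 6 libraries, and both calls are lost when the high side starts at 1 Tnf UMI (log2 ratios of 0.86 for Nfkbid and 0.79 for Nfkbia).

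Among the subunit genes, Rel, which encodes the transactivating subunit c-Rel, ran from 63.5 to 105 CPM without Tnf and from 112 to 156 CPM with Tnf. Its log2 ratio was 0.55 (0.34 to 0.75), below the calling line, yet its library ranges did not overlap. Nfkb1 encodes a precursor and DNA-binding partner, and its log2 ratio of 0.25 (0.13 to 0.38) was above 0 in 6 of 6 libraries. Altogether 6 members were above 0 in every library (Nfkb1, Rel and the 4 called), against 1.8% of all tested genes.

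Nfkb2 and Relb are the genes of the alternative NF-κB pathway. Nfkb2 ran from 23.2 to 124 CPM with Tnf and from 30.3 to 76.2 CPM without, and it was higher with Tnf in 4 of 6 libraries. In libraries 3 and 6 it was lower with Tnf (log2 ratios of -0.85 and -0.56, with 5 CPM added to both sides for single libraries), but its Tnf side held only 5 and 2 UMIs there, and its stratified log2 ratio was 0.64 (0.39 to 0.89). Relb had a log2 ratio of 0.27 (0.01 to 0.52).

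Traf1, a signalling adaptor of TNF receptors, had a log2 ratio of 0.18 (-0.12 to 0.48), which was -0.05 without library 4. It stood at 9.30 and 11.7 CPM with Tnf in libraries 3 and 6, which are 2 UMIs and 1 UMI, and at 49.7 to 87.0 CPM in the other libraries. Bcl3, a nuclear IκB protein that partners the DNA-binding subunits, was the only member with a negative ratio, -0.34 (-0.61 to -0.06), and was lower with Tnf in 3 of 6 libraries.

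**Figure D1:**
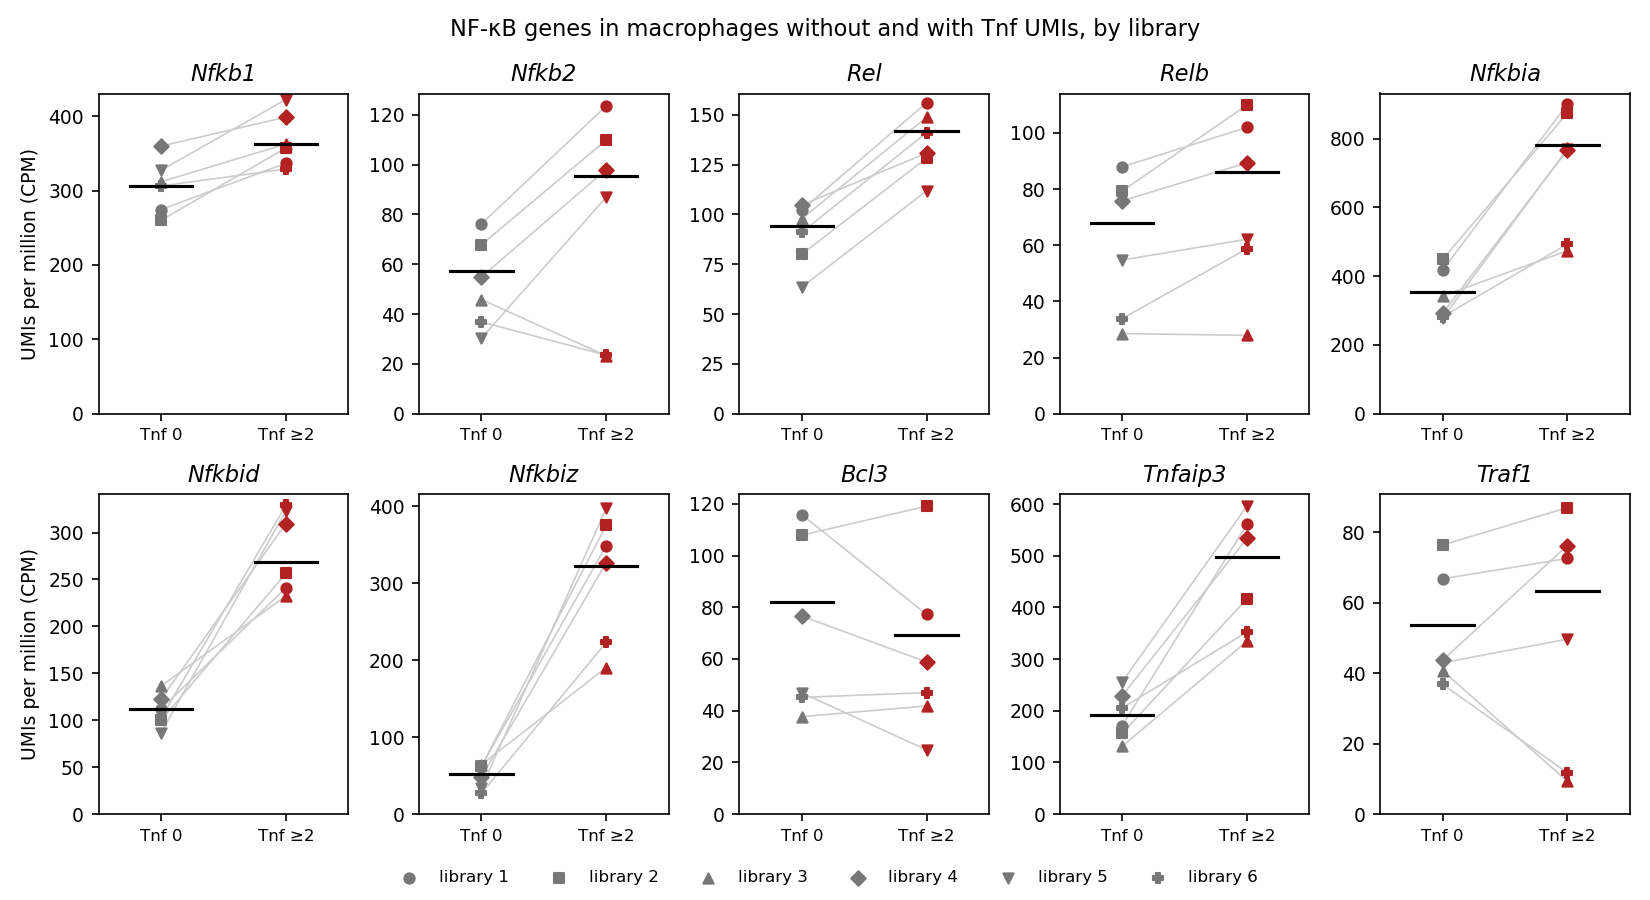
CPM of each member in macrophages with 0 and with at least 2 Tnf UMIs; a symbol is a library, grey lines join the sides of a library and the black bar is the value pooled over libraries. For Nfkbiz the high side begins at 191 CPM while the low side ends at 64.2 CPM, and for Nfkb2 and Traf1 the lines of libraries 3 and 6, at 1 to 5 UMIs on the Tnf side, go down.

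Cells with Tnf UMIs also had more UMIs in all (median 6297.5 against 4240), which CPM scales for. Each cell was also thinned to 1500 UMIs, with its Tnf bin kept from all its UMIs. Values by bin were pooled over libraries, not stratified. Nfkbiz stood at 43.6, 103, 195, 313 and 435 CPM at 0, 1, 2 to 3, 4 to 7 and 8 or more Tnf UMIs. Without thinning it went from 51.8 to 595 CPM. Deeper cells stay in the higher bins (median 4311 UMIs at 0 and 8288.5 at 8 or more), so thinning cannot test the depth difference. Tnfaip3 went from 192 to 664 CPM and Nfkbia from 353 to 931 CPM over the same bins, each bin above the one before. Nfkb1 stayed between 306 and 392 CPM in all bins, and Bcl3 was lowest, at 52.8 CPM, in the 46 cells with the most Tnf. The macrophage markers summed to 22102 CPM on the high side and 24098 CPM on the low side, and 8 of 9 T cell markers had 0 UMIs on the high side.

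In B cells the leading member was a different one. Nfkbid was 12.5-fold higher in B cells with at least 2 Egr3 and Egr4 UMIs than in those with 0, followed by Rel at 3.33-fold, Tnfaip3 at 3.18-fold and Traf1 at 2.35-fold. By the same rule 7 of the 10 members were called higher and 0 lower, against 2.22% and 4.44% of 9151 tested genes. The median log2 ratio of the members was 1.13, against -0.09 for all tested genes. Above 0 in every library were 9 members, against 8.29% of all tested genes. The library values of 6 members did not overlap between the sides, against 1.09%. As in macrophages, these shares describe members chosen with earlier results known.

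Nfkbid ran over the libraries from 41.2 to 140 CPM (median 58.8) in B cells without Egr3 or Egr4 UMIs and from 588 to 1002 CPM (median 844) in those with at least 2. The sides were far apart: the lowest high-side library was numbered 4 and the highest low-side library was numbered 6. The log2 ratio was 3.65 (3.54 to 3.76), and it was 4.26 among cells of 3000 to 10000 UMIs. The gene lies at chr7:30421732-30428746 (GRCm38, plus strand), and its second annotated start carries the κB matches shown above.

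Rel, whose product is the main inducible subunit of lymphocytes, ran from 96.9 to 217 CPM without and from 286 to 493 CPM with Egr3 and Egr4 UMIs. The ranges did not overlap, and the log2 ratio was 1.73 (1.63 to 1.84). Tnfaip3 ran from 22.9 to 75.6 CPM without and from 97.1 to 221 CPM with, at a log2 ratio of 1.67 (1.48 to 1.85). For both genes the highest value on either side came from library 6.

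Traf1 ran from 71.7 to 141 CPM without and from 163 to 314 CPM with Egr3 and Egr4 UMIs, at a log2 ratio of 1.23 (1.10 to 1.37). Nfkbia had a log2 ratio of 1.18 (1.06 to 1.31), and its single libraries lay between 1.07 and 1.49. Nfkbiz and Nfkb2 were called near the line. Their log2 ratios were 1.09 (0.90 to 1.28) for Nfkbiz, whose library ranges overlapped, and 1.07 (0.83 to 1.31) for Nfkb2, and each drops to 0.91 when 1 library is left out, library 2 for Nfkbiz and library 1 for Nfkb2.

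With the high side starting at 1 UMI, Traf1 (0.92), Nfkbia (0.91) and Nfkb2 (0.81) are not called. Nfkb1 at 0.83 (0.71 to 0.94) and Relb at 0.74 (0.50 to 0.98) were above 0 in 6 of 6 libraries but not called. Bcl3 went the other way, with a log2 ratio of -0.69 (-0.96 to -0.42) that was below 0 in 6 of 6 libraries, where 12.9% of tested genes were. It stood at 25.6 to 109 CPM without and at 14.7 to 76.2 CPM with Egr3 and Egr4 UMIs, so the ranges overlapped although every library was lower.

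**Figure D2:**
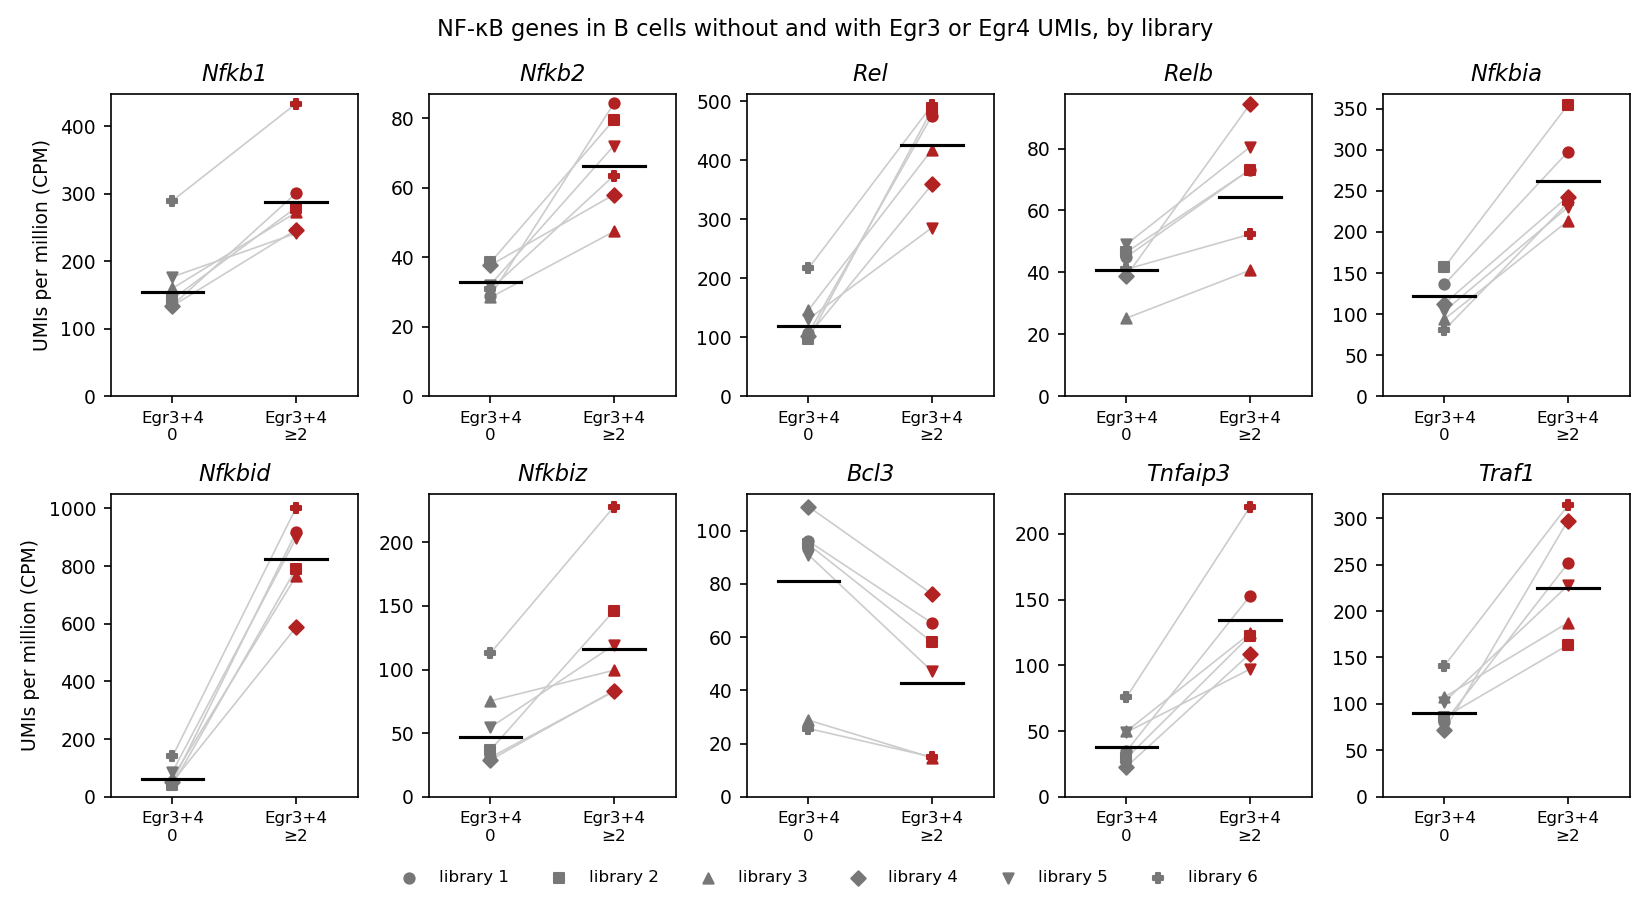
CPM of each member in B cells with 0 and with at least 2 Egr3 and Egr4 UMIs, drawn as for macrophages. Nfkbid goes from at most 140 CPM to at least 588 CPM, while the Bcl3 lines all go down and libraries 3 and 6 lie lowest on both sides.

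By Egr3 and Egr4 bin, Nfkbid rose at each step, from 60.2 CPM at 0 UMIs to 196, 563, 759 and 1333 CPM at 1, 2 to 3, 4 to 7 and 8 or more. Rel went from 119.6 CPM to 647 CPM over the same bins. Tnfaip3 and Nfkbiz did not rise at each step. Tnfaip3 stood at 37.9, 65.8, 136, 95.9 and 174 CPM, and Nfkbiz at 47.1, 107, 106, 93.6 and 160 CPM. Bcl3 stood at 81.2 CPM at 0 UMIs, 38.1 CPM at 1 UMI and 67.3 CPM in the last bin. The bins pool the libraries, and Bcl3 in B cells was lowest in libraries 3 and 6. These gave 54 and 51 of the 245 cells at 1 UMI, and 389 and 192 of the 2537 at 0 UMIs. The part of this mix in the Bcl3 steps was not tested. With every cell thinned to 1500 UMIs and its bin kept from all its UMIs, Nfkbid went from 50.4 to 1522 CPM. The high side was deeper (median 8379 against 5159 UMIs), its B cell markers summed to 2652 CPM against 4059 CPM, and its macrophage markers to 805 CPM against 615 CPM; the part of these in the results was not tested.

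**Figure D3:**
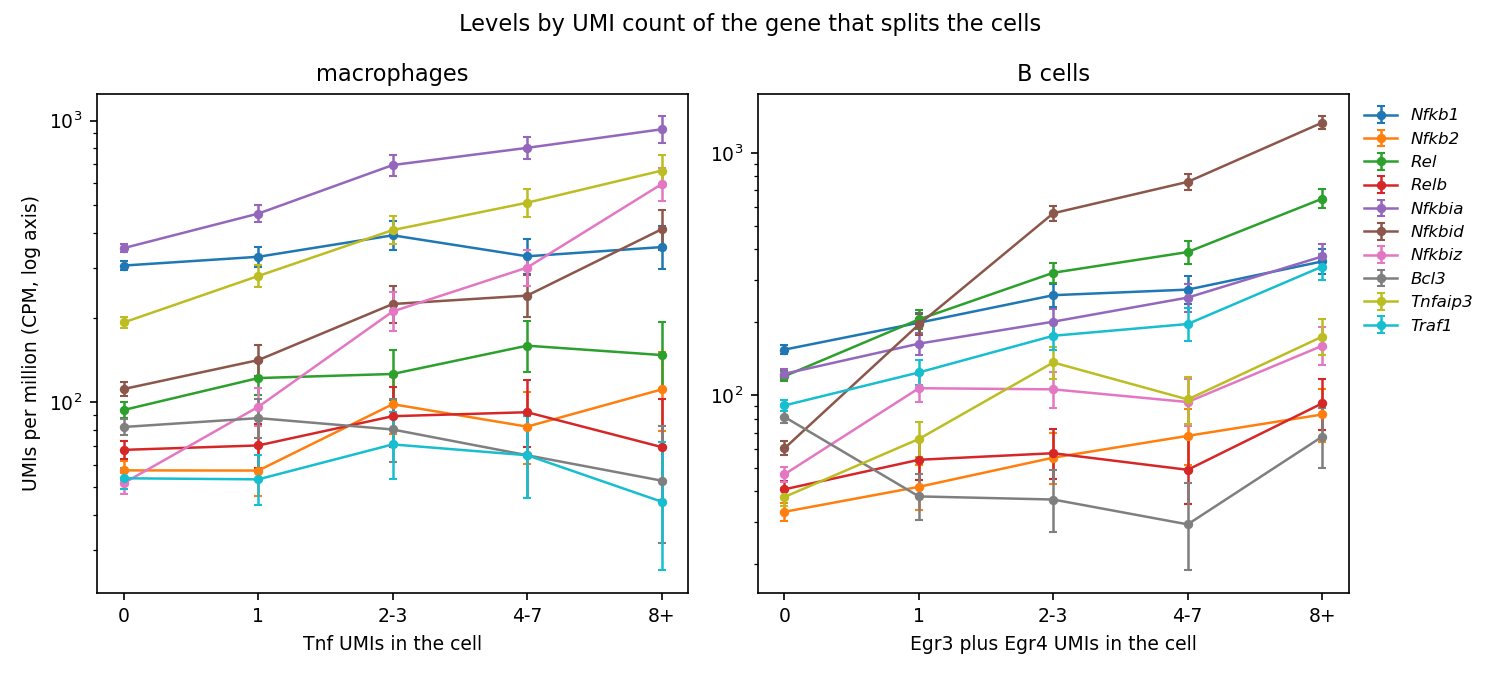
CPM (log axis), pooled over libraries, of each member in macrophages by Tnf UMIs and in B cells by Egr3 plus Egr4 UMIs. Error bars are 95% Poisson intervals. In macrophages Nfkbiz climbs most, from 51.8 to 595 CPM, and in B cells Nfkbid does, from 60.2 to 1333 CPM.

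**Figure D4:**
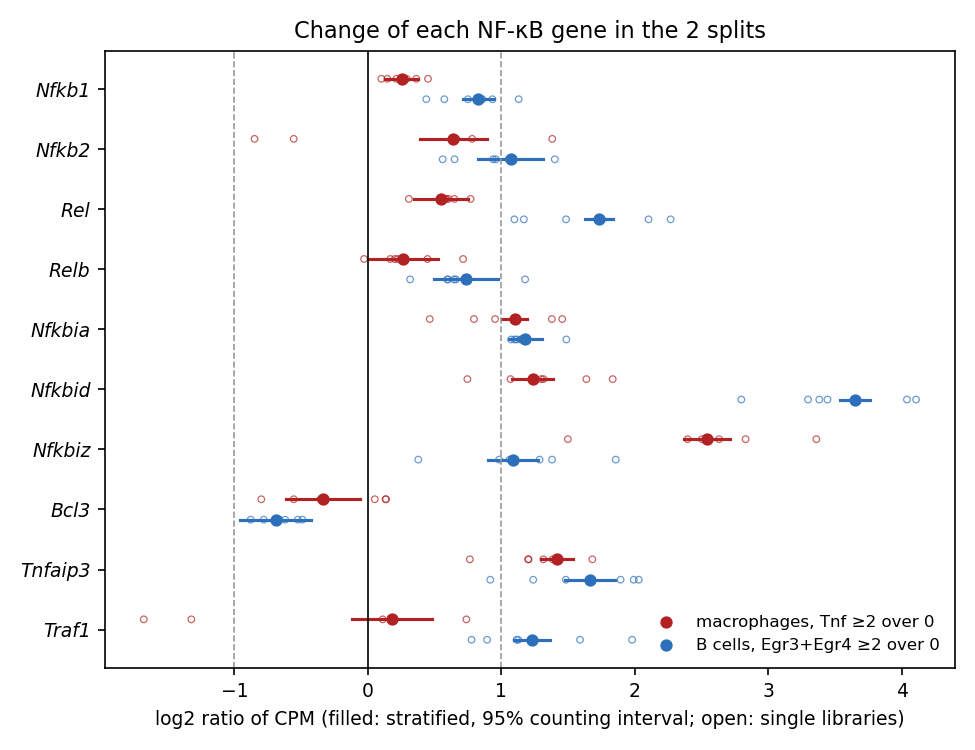
Stratified log2 ratio of each member in the macrophage split (red) and the B cell split (blue), with 95% counting intervals as bars and single libraries as open circles; dashed lines mark the calling rule. Nfkbiz is at 2.54 in macrophages and 1.09 in B cells, Nfkbid at 1.23 and 3.65, and Bcl3 is left of 0 in both.

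The splits use different genes, so each was also crossed to the other cell class. Only 68 macrophages had at least 2 Egr3 and Egr4 UMIs, and 3 libraries had at least 10 such cells. The ratios still take in every library. Nfkbiz had a log2 ratio of 2.01 (1.77 to 2.25), Nfkbid 1.54 (1.31 to 1.76) and Tnfaip3 1.01 (0.82 to 1.21). So 3 members were called higher, against 3.24% of tested genes. In B cells, 137 had at least 2 Tnf UMIs, and 4 libraries had at least 10 such cells. Again with every library in the ratio, Tnfaip3 was called at 1.45 (1.22 to 1.68), against a background of 3.23%. Nfkbid was at 0.95 (0.81 to 1.10) in that split, far under its 3.65 in the split by Egr3 and Egr4, and Nfkbiz was at 0.98 (0.74 to 1.22). The markers of the splits went together, so the crossed splits are not independent of the first ones. The 68 macrophages held 257 Tnf UMIs, and the 2589 without Egr3 or Egr4 UMIs held 1266. The 137 B cells held 330 Egr3 and Egr4 UMIs, and the 2750 without Tnf UMIs held 1524. The difference between the splits was not tested.

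Across the cell classes, Tnfaip3 and Nfkbia were higher in macrophages than in B cells, Rel was highest in B cells, and Traf1 was lower in macrophages than in either lymphocyte class. In macrophages over B cells 2 members were called higher (19.0% of all tested genes were) and 1 lower (23.5%), which is near the background.

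Tnfaip3 ran from 169 to 295 CPM in the macrophages of the 6 libraries and from 33.4 to 105 CPM in B cells, a log2 ratio of 2.11 (2.01 to 2.22). Nfkbia ran from 301 to 518 CPM in macrophages and from 119 to 181 CPM in B cells, a log2 ratio of 1.53 (1.46 to 1.59). Traf1 ran from 33.3 to 78.4 CPM in macrophages and from 92.7 to 199.5 CPM in B cells, a log2 ratio of -1.05 (-1.18 to -0.93). For these 3 genes and for Rel the library ranges of the classes did not overlap, 2 with macrophages higher (19.1% of tested genes) and 2 with macrophages lower (23.3%). Traf1 is not called without library 3, 5 or 6 (-0.99 to -0.89) or with every cell thinned to 1500 UMIs (-0.88). With ribosomal, mitochondrial and immunoglobulin genes left out of the totals, the median log2 ratio of all genes moves from -0.17 to -0.74. Tnfaip3 is then at 1.60, Nfkbia at 1.02 and Rel at -1.26, which that scaling adds to the calls.

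T/NK cells were compared without the barcodes that also carried more than 2 Cd79a and Cd79b UMIs, a choice made after seeing the data that left 508 cells. Rel then ran from 41.5 to 86.2 CPM in T/NK cells, against 70.0 to 113 CPM in macrophages and 133 to 297 CPM in B cells. Over T/NK cells its log2 ratio was 1.82 (1.51 to 2.12) in B cells and 1.03 (0.71 to 1.34) in macrophages, of which the latter is 0.56 under that other scaling. Nfkbid was also low in T/NK cells, at 8.25 to 57.5 CPM, and was higher by a log2 ratio of 2.60 (2.21 to 2.98) in B cells and 2.15 (1.76 to 2.54) in macrophages.

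Tnfaip3 was 100.1 to 179.5 CPM in T/NK cells, so B cells were lowest of the 3 classes for that gene, with a log2 ratio of -1.40 (-1.59 to -1.20) over T/NK cells. Bcl3 was highest in T/NK cells, at a pooled 106 CPM against 81.1 CPM in macrophages and 71.0 CPM in B cells, and B cells were below T/NK cells in 6 of 6 libraries, where 10.4% of tested genes were. For macrophages over these T/NK cells, 4 members were called higher against 19.0% of tested genes, and 1 lower against 26.8%. For B cells over T/NK cells, 2 were called higher against 9.98%, and 1 lower against 13.9%. Under the other scaling 1 member, Nfkbid, is called higher in macrophages. With the mixed barcodes kept, Rel in T/NK cells was 101 CPM instead of 49.5 CPM and Nfkbid 68.4 CPM instead of 30.4 CPM, the log2 ratio of Rel fell to 0.83 in B cells and 0.07 in macrophages, and 3 members were called higher in macrophages (16.9% of tested genes were) and 1 lower (27.1%), with 1 higher (3.38%) and 1 lower (8.05%) in B cells. Macrophage markers still summed to 3227 CPM in the 508 T/NK cells, and their part in these levels was not tested.

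**Figure D5:**
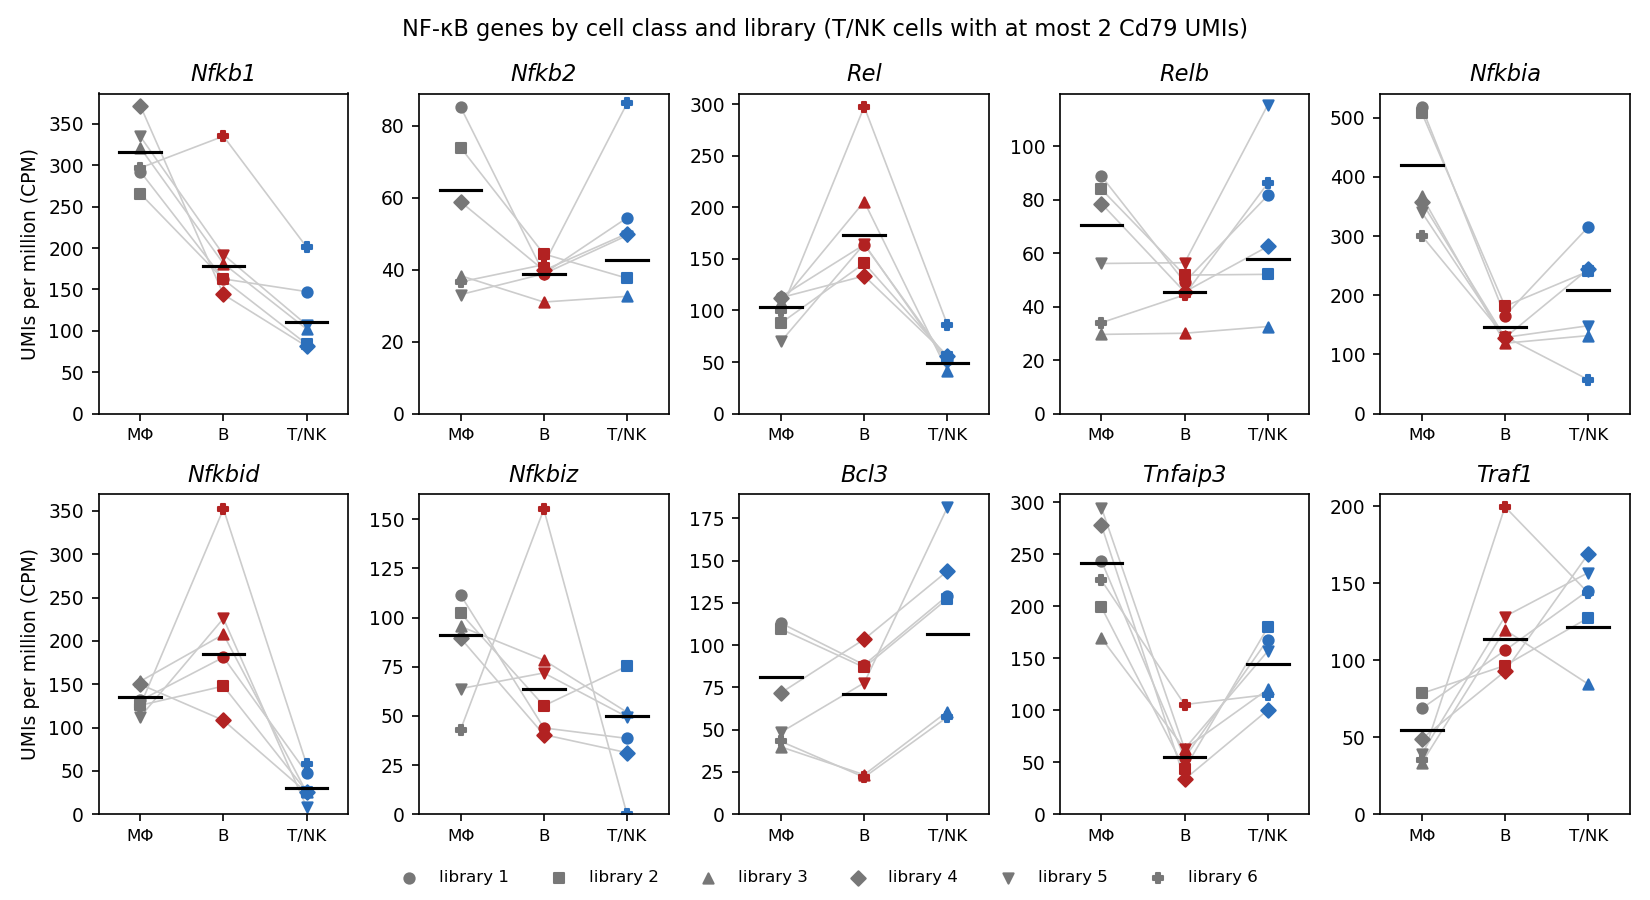
CPM of each member in macrophages (MΦ), B cells and the T/NK cells with at most 2 Cd79a and Cd79b UMIs; a symbol is a library and the black bar is the pooled value. Tnfaip3 dips in B cells, Rel peaks there, and the Bcl3 points of libraries 3 and 6 lie at the bottom in every class.

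Bcl3 also differed between libraries in the same way in each class. In B cells it stood at 23.3 CPM in library 3 and 21.8 CPM in library 6, and at 77.7 to 104 CPM in the others. In macrophages those libraries stood at 39.8 and 43.0 CPM and the others at 48.5 to 113 CPM. In the T/NK cells they stood at 60.7 and 57.5 CPM and the others at 127 to 181 CPM. Library 6 held only 16 of those T/NK cells, and since no library was matched to a condition these values are given as they are.

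Macrophages of the peritoneum come in a large resident type and a small, monocyte-derived type, which were separated after the data had been seen. A cell was counted if it had at least 2 UMIs of the markers of 1 type and 0 of the other's (320 large and 412 small cells). Most of the 2773 macrophages met neither rule. The counted cells were also shallower (median 4057.5 and 3242 UMIs, against 4426 in all macrophages), so the ratios describe these selected cells. The members' log2 ratio of the small over the large type had a median of -0.52, against 0.09 for all tested genes. Of the 10 members 1, Nfkbiz, was called lower, which is near the share of all tested genes (10.1%). Nfkbiz was lower in the small type, at a pooled 32.9 CPM against 101 CPM (log2 ratio -1.19, -1.65 to -0.72), where 10.1% of tested genes were called lower, and it was below 0 in 6 of 6 libraries, as were 6.95% of tested genes. Nfkbid, at -0.56 (-0.94 to -0.17), was also below 0 in 6 of 6 libraries but not called. Rel at 0.83 (0.47 to 1.19) and Traf1 at 0.76 (0.35 to 1.17) were higher in the small type in 6 of 6 libraries without being called, against 11.2% of tested genes above 0 in every library.

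The rest of the pathway was read from 3 lists of receptors and adaptors, of kinases and regulators, and of target genes. Of all tested genes in the macrophage split, 1.35% were called higher and 3.44% lower. In the macrophage split, 1 of 24 receptors and adaptors was called. It was Malt1, a protease of receptor signalling to NF-κB, at a log2 ratio of 1.18 (1.07 to 1.30). Of 35 kinases and regulators 1 was called higher, the kinase gene Map3k8, and 2 lower, Map3k14 and Pdlim2, both at no more than 12.4 CPM on either side. Of 44 targets 23 were called higher and 2 lower, Ccl5 and Tnfrsf9. The lists were also chosen with earlier results of these data known. The split gene Tnf is of the same kind as several targets, so the count is a description only. The neutrophil chemokine Cxcl1 went from 229.6 CPM to 1313 CPM, the prostaglandin synthase gene Ptgs2 from 297 to 1361 CPM, and the cytokine gene Il1a from 353 to 1782 CPM. Ccrl2, a chemokine-binding receptor, had the highest ratio of the list, 2.82 (2.67 to 2.97). The growth factor gene Csf3 followed at 2.76 (2.45 to 3.06), and the chemokine gene Ccl3 was at 2.27 (2.22 to 2.33).

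In the B cell split, 0 of 24 receptors and adaptors were called higher and 1 lower, the receptor-associated kinase Irak4, at -1.05 (-1.55 to -0.55). Of all tested genes in this split, 2.22% were called higher and 4.44% lower. Of 35 kinases and regulators 4 were called higher, among them Nfkbie, which encodes a further cytoplasmic IκB protein, at 1.16 (1.00 to 1.31), and Tank, an adaptor of IκB-kinase-like enzymes, at 1.12 (0.97 to 1.26). Zc3h12a, an RNase that degrades cytokine transcripts, was at 1.22 (0.93 to 1.52), and the kinase gene Map3k8 was the fourth. Of 39 targets 17 were called higher and 1 lower, Ltb, which encodes lymphotoxin beta and went from 98.3 to 29.5 CPM. Il10, an anti-inflammatory cytokine gene, went from 32.2 to 223 CPM, Myc, a growth regulator, from 61.2 to 340.4 CPM, and Ccl4, a chemokine gene, from 336 to 1699 CPM. The chemokine gene Ccl3 was at 1.99 (1.89 to 2.09), the stress-response gene Gadd45b at 1.73 (1.56 to 1.89) and Marcksl1 at 1.65 (1.54 to 1.76).

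The genes whose pattern was most like a member's were found by Pearson's r of log2 CPM over 30 points, the 2 macrophage sides, the 2 B cell sides and the T/NK cells in each library, among 5465 genes. The points share libraries and the genes that split the cells, so r is a description only. Nfkbid went most closely with the immediate early gene Nr4a1 (r = 0.95), Rel with the histone demethylase gene Kdm6b (0.92), Nfkbia with Ccrl2 (0.90) and Tnfaip3 with Ifrd1 (0.91). Nfkbiz went with Tnf (0.87), which itself defined the macrophage sides. Nfkb2 and Relb, whose products form 1 dimer, were each other's closest gene (0.72), and r between Bcl3 and Nfkb1 was negative (-0.53).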

How the data were processed

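The authors aligned reads with STAR to human and mouse genomes (hg38 and mm10) through Cell Ranger (2.2 and Seurat 3.0 in the submitters' processing notes, another Cell Ranger version in the study's methods) and deposited 1 table of raw UMI counts for 7760 barcodes and 40172124 UMIs, joined over 6 libraries. The annotation they used is not given in the sources used here. Here, a cell was kept if it had 500 genes or more, a log ratio of genes to UMIs no lower than 0.8 and no more than 10% mitochondrial UMIs (7665 cells, with 95 left out; the cell count the study states lies between these and all barcodes). No doublet caller was run. UMIs were summed per library and class and scaled to CPM over all genes. Ratios were Mantel-Haenszel rate ratios stratified by library with Greenland-Robins 95% intervals, for genes averaging 5 CPM or more over both sides, leaving out the genes that split the cells; levels carry 95% Poisson intervals. Both cover counting error only, and no p-value was computed because each condition has 1 library and library numbers are not matched to conditions. Libraries with under 10 cells on a side were not counted in directions. T cells could not be compared with NK cells in any library. Named pathway genes are up to 6 per list with the highest absolute ratio among called genes that go the same way in every library, and lists with 5 or fewer called genes are named in full after their values were seen. The members and lists were chosen with earlier results of these data known. The code was tested on simulated data. Python 3.11.15, numpy 2.4.6, scipy 1.17.1 and pandas 2.3.3 were used. Promoters came from RefSeq GRCm38.p6 and gene positions from GENCODE for GRCm38. Alternatives covered cell filters, depth, the split, class rules, scaling, the low-value filter and each library left out.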

Additional observations from a re-analysis of the deposited data

How the results depend on the processing

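No called ratio of a member changed direction under any alternative run for the 2 splits and the 3 class comparisons. Leaving out each library in turn kept 4 members called in the macrophage split and 6 to 7 in the B cell split; pathway genes called ranged from 26 to 31 and from 18 to 29, and members called from 2 to 3 for macrophages over B cells, from 3 to 4 over T/NK cells and 2 for B cells over T/NK cells. Splitting at 1 UMI left 2 members (Nfkbiz and Tnfaip3) and 14 pathway genes called in macrophages, against 4 and 29, and 4 members in B cells, against 7; the cause was not tested. In the B cell split 35 pathway genes were called after thinning to 1500 UMIs and 36 among cells of 3000 to 10000 UMIs, against 23. For macrophages over T/NK cells 2 members were called with at least 1000 genes per cell and 1 with ribosomal, mitochondrial and immunoglobulin genes out of the totals, against 4 (2 with both that scaling and the mixed barcodes left out, added after seeing the data); for B cells over T/NK cells 1 was called among cells of 3000 to 10000 UMIs, against 2. That scaling moved the median log2 ratio of all genes from -0.17 to -0.74 for macrophages over B cells and from -0.30 to -0.83 over T/NK cells, so class ratios are relative to it. Thinning kept the classes and splits as they were set on all UMIs. Over all genes, thinning called 369 higher and 891 lower in macrophages (115 and 294 as reported) and 594 and 1156 in B cells (203 and 406). A limit of 1 CPM called 450 and 1111, and 500 and 1130; the split at 1 UMI 68 and 59, and 141 and 319; the median of library ratios 55 and 183, and 111 and 127; cells of 3000 to 10000 UMIs 418 and 811 in B cells, and the split at 3 UMIs 150 and 486 in macrophages. For B cells over T/NK cells (326 and 775) strict classes called 1391 and 1471, leaving out mixed barcodes 969 and 1348, thinning 836 and 1112, and a limit of 1 CPM 714 and 1642. No paired analysis was possible because each group holds 1 sample, so the number 1 they share is only a name, and libraries are not matched to samples; the ratios compare cells within libraries.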
